A study of Elaeis guineensis with 58 samples.

Results

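Spear leaf transcriptomes of oil palm (Elaeis guineensis) were compared between 2 genetic backgrounds supplied by agency L1, 12 palms labelled Dumpy Avros and 20 palms labelled Dumpy Yangambi Avros. These 32 palms were all palms of L1 and were chosen by agency and genotype label alone, out of 58 libraries in the series. Each palm was an ortet, meaning a donor of tissue for clonal propagation, and gave 1 library. Of the Dumpy Avros palms, 5 had yielded no embryoid lines (zero palms) and 7 had yielded few (low palms). Of the Dumpy Yangambi Avros palms, 12 were zero palms and 8 were low palms. The low palms had a median of 1 line in Dumpy Avros and of 3.5 lines in Dumpy Yangambi Avros, with at most 27 and 48 lines. All L1 RNA was extracted with CTAB, a detergent method, and sequenced from the 3' end of transcripts. The age of the palms and their parents were not given in the labels.

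Dumpy, Avros and Yangambi are names of oil palm breeding materials. Dumpy is known for short trunks, and Avros and Yangambi are known mainly as sources of pollen parents for commercial crosses. Palms of different breeding material can differ in the level of a transcript through sequence variants near the gene or elsewhere, and a gene that is missing or silent in a background gives an on/off difference. The spear leaf is the youngest, still unopened frond, a usual source of tissue for oil palm cloning.

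Total counts in genes ran from 3943437 to 9685451 per palm, with 6656547 ± 1638782 in Dumpy Avros (SD, n = 12) and 6073596 ± 1319629 in Dumpy Yangambi Avros (SD, n = 20). Reads with several alignments made up 21.2% ± 9.3 of a Dumpy Avros library and 24.6% ± 7.58 of a Dumpy Yangambi Avros library. None of 6 library measures differed between the genotypes beyond the spread between palms, with permutation p-values adjusted over the 6 between 0.555 and 0.886. The leaf label was checked against plastid photosynthesis genes. RuBisCO large subunit rbcL was at 293 to 4820 CPM in Dumpy Avros and at 509 to 6180 CPM in Dumpy Yangambi Avros, and photosystem II psbA was at 256 to 7860 and at 408 to 11800 CPM. CPM is a gene's counts relative to the total of its library, here and below scaled by TMM, a factor for library composition, unless another scale is named. In whole tissue, fewer cells of a type and less RNA per cell cannot be told apart.

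No gene passed the test between the 2 genotypes. With the embryogenesis group as a term, 0 of 18689 tested genes (0%) had an adjusted p below 0.05 by edgeR's quasi-likelihood test, and the smallest adjusted p was 0.163. At an unadjusted p below 0.05 there were 1322 genes (7.07%), of which 655 were higher and 667 lower in Dumpy Yangambi Avros. The median log2 difference over all tested genes, Dumpy Yangambi Avros minus Dumpy Avros, was 0.029. DESeq2 on the same counts called 17 genes (0.091%), 7 of them higher in Dumpy Yangambi Avros. Limma-voom with quality weights called 0 genes, with 1459 at an unadjusted p below 0.05. Leaving out Dumpy Yangambi Avros palm 4 gave 8 edgeR calls and leaving out palm 13 gave 1, and leaving out any of the other 30 palms gave 0. On simulated counts with this design, 58% of 2-fold and 96% of 4-fold changes were recovered by edgeR, with 4 false calls among 18533 genes. The genes were drawn independently of each other, without variation shared by many genes of a palm. Recovery in counts with such shared variation was not tested.

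**Figure D1:**
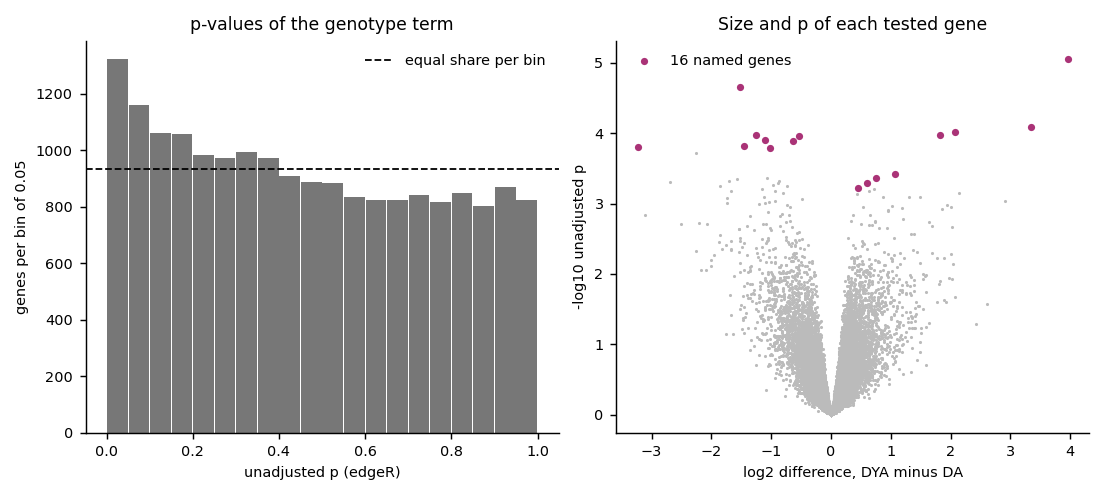
Left, the number of tested genes in each bin of unadjusted p for the genotype term (edgeR), with a dashed line at an equal share per bin; right, the log2 difference of Dumpy Yangambi Avros (DYA) minus Dumpy Avros (DA) against -log10 of the unadjusted p, 1 dot a gene. The lowest bin holds 1322 genes. The 16 genes described in the text lie near the top with other genes among them, LOC105033495 at the far right at 3.96.

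The 8 genes of smallest p in each direction, with an average log2 CPM of at least 1, are described next. They are the extremes of a test that no gene passed, so their values describe these palms. The files and the reference table give no product names for these LOC identifiers, so no function is stated for them. Of the 16 genes, 12 were among the 17 that DESeq2 called. Both tests used the same counts, terms and count filter, so much of this overlap was fixed beforehand.

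Among the genes with a positive difference, LOC105033495 came closest to an on/off pattern. It was at 0 to 0.919 CPM with a median of 0.336 in Dumpy Avros and at 0.171 to 86.5 CPM with a median of 2.74 in Dumpy Yangambi Avros. All 12 Dumpy Avros palms were low, and 17 of 20 Dumpy Yangambi Avros palms lay above the highest of them. The log2 difference was 3.96 ± 0.75 (SE), and edgeR gave an unadjusted p of 8.7e-06 and an adjusted p of 0.163. The DESeq2 adjusted p was 2.96e-05. Without Dumpy Yangambi Avros palm 4 or palm 13 the edgeR adjusted p of LOC105033495 was 0.047 and 0.0452. The gene passed the count filter only through its Dumpy Yangambi Avros palms, and these p-values do not allow for that. Its identifier was not found in the EG11 gene table.

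LOC105039351 was at 0.341 to 4.26 CPM in Dumpy Avros, with a median of 1.55, and at 0 to 227 CPM in Dumpy Yangambi Avros, with a median of 6.81. The groups overlapped, and 11 of 20 Dumpy Yangambi Avros palms lay above every Dumpy Avros palm. Its log2 difference was 3.34 ± 0.74 (SE), with an edgeR adjusted p of 0.251 and a DESeq2 adjusted p of 0.00137. LOC105054047 was at 0.49 to 4.45 CPM (median 0.981) in Dumpy Avros and at 0.56 to 27.4 CPM (median 4.21) in Dumpy Yangambi Avros. LOC105053406 was at 4.56 to 16.4 CPM (median 7.54) and at 5.54 to 146 CPM (median 14.9). In each of LOC105054047 and LOC105053406, 9 of 20 Dumpy Yangambi Avros palms lay above the highest Dumpy Avros palm, and the low ends of the groups overlapped. Their log2 differences were 2.07 ± 0.47 and 1.82 ± 0.41 (SE), each with an edgeR adjusted p of 0.251. LOC105039351 and LOC105054047 passed the count filter mainly through Dumpy Yangambi Avros palms, and the p-values of these genes do not allow for that.

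These 4 genes were highest in many of the same palms. Dumpy Yangambi Avros palms 6, 14 and 18 were among the 6 highest palms for all 4 genes, palms 7, 15 and 17 for 3, palm 10 for 2 and palm 1 for 1. Of those 8 palms, 6 were low palms, while the low palms 2 and 13 were among the highest for none of the 4. Palms 14 and 15 were also the 2 lowest of all 32 on the first principal component of expression, at -62.95 and -77.03. Without both, the log2 differences were 2.73 for LOC105039351, 2.07 for LOC105054047 and 1.51 for LOC105053406, and LOC105033495 no longer passed the count filter. By limma-voom with quality weights the log2 differences were 2.45 for LOC105033495, 1.86 for LOC105039351 and 1.22 for LOC105053406.

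These 4 genes, and LOC105048088 described below, had larger differences among low palms than among zero palms. LOC105033495 had a median of 2.11 CPM in zero and 10.5 CPM in low Dumpy Yangambi Avros palms, against 0.689 and 0.29 CPM in Dumpy Avros. LOC105039351 had medians of 3.75 and 30.3 CPM in Dumpy Yangambi Avros, against 0.98 and 2.54 CPM in Dumpy Avros. The genotype difference in low palms minus that in zero palms was 4.05 ± 1.24 (SE) for LOC105033495 with an unadjusted edgeR p of 0.0026, 2.94 ± 1.24 for LOC105039351 with 0.0244, 2.06 ± 0.69 for LOC105053406 with 0.00547 and 1.36 ± 0.87 for LOC105054047 with 0.13. Over all genes, 0 of 18689 interactions (0%) had an adjusted p below 0.05 by edgeR and 526 (2.81%) an unadjusted p below 0.05, and DESeq2 also called 0. For LOC105048088 the difference was 0.3 among zero and 1.22 among low palms, an interaction of 0.92 ± 0.35 (SE) with an unadjusted edgeR p of 0.0135. The adjusted edgeR p of each of these interactions was 1.

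The other 4 genes with a positive difference had smaller differences. LOC105050603 was at 0.887 to 5.06 CPM (median 1.73) in Dumpy Avros and at 1.71 to 9.27 CPM (median 4.34) in Dumpy Yangambi Avros, a log2 difference of 1.07 ± 0.27 (SE). LOC105048088 was at 6.81 to 16.4 CPM (median 12.1) and at 8.79 to 41.7 CPM (median 16.9), a log2 difference of 0.76 ± 0.19. For these genes 7 and 10 of 20 Dumpy Yangambi Avros palms lay above all Dumpy Avros palms. LOC105042791 was at 6.56 to 23.3 CPM (median 15.1) and at 14.9 to 32.2 CPM (median 22.5), a log2 difference of 0.6 ± 0.16. LOC105045533 was at 7.33 to 15.1 CPM (median 10.7) and at 9.78 to 19.4 CPM (median 15.9), a log2 difference of 0.45 ± 0.12. For LOC105050603, LOC105042791 and LOC105045533, 19 of 20 Dumpy Yangambi Avros palms were above the Dumpy Avros median, though the ranges overlapped. All 4 had an edgeR adjusted p of 0.398. LOC105050603 also passed the count filter mainly through Dumpy Yangambi Avros palms, which its p-value does not allow for.

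**Figure D2:**
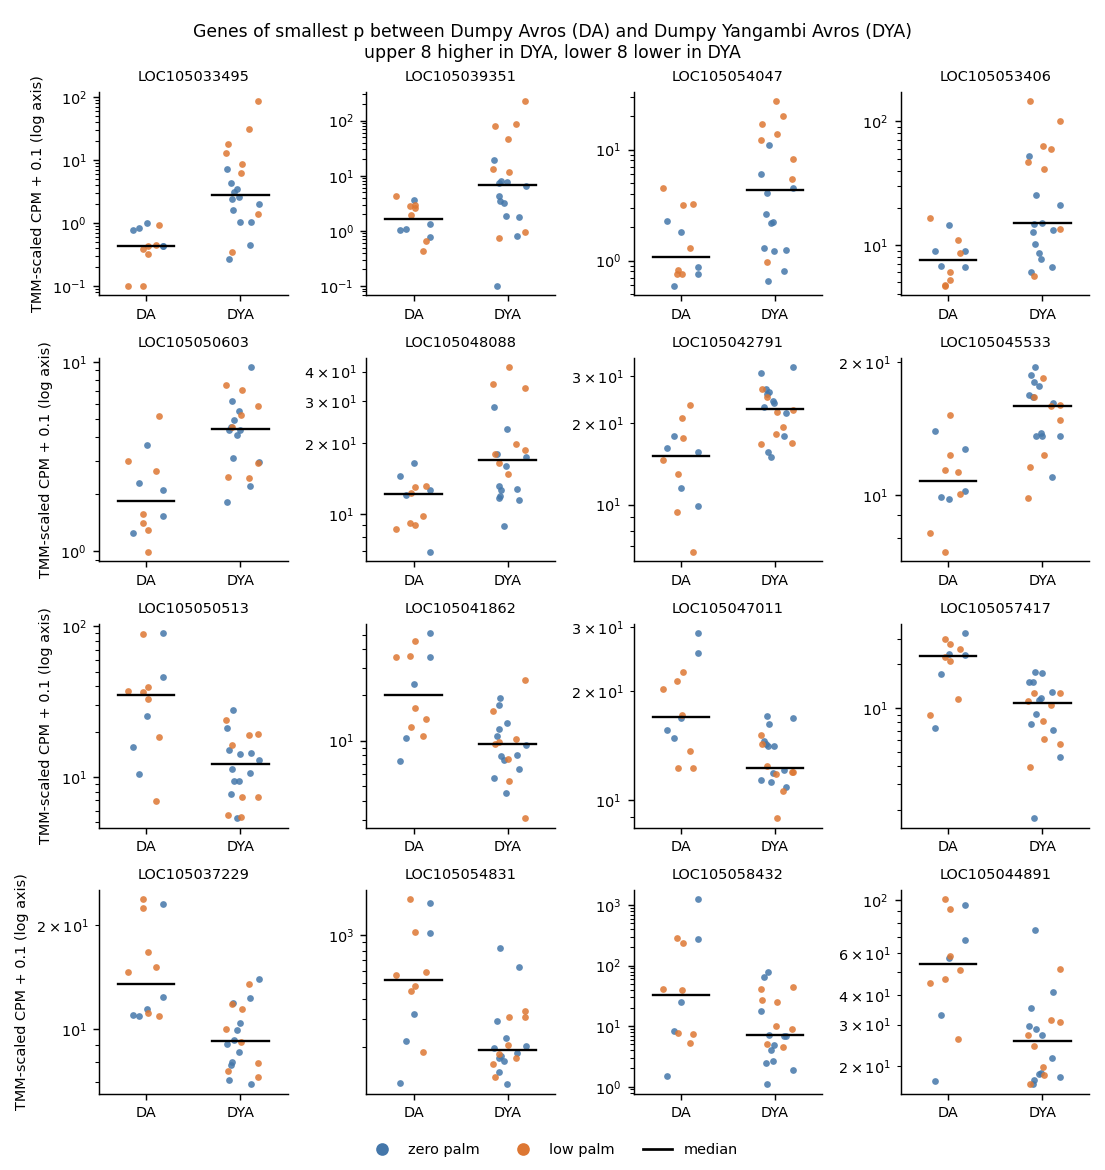
Expression in each palm of the 16 named genes, the 8 of smallest p in each direction, as TMM-scaled CPM plus 0.1 on a log axis. Shown are 12 Dumpy Avros (DA) and 20 Dumpy Yangambi Avros (DYA) palms. Blue dots are zero palms, orange dots low palms and black lines medians. LOC105033495 lies below 1 CPM in every DA palm, and in all 16 genes the palms of the 2 genotypes overlap.

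Among the genes with a negative difference, LOC105050513 had the smallest p. It was at 6.81 to 89.8 CPM (median 34.8) in Dumpy Avros and at 5.23 to 27.6 CPM (median 12.1) in Dumpy Yangambi Avros. High palms were found in Dumpy Avros, where 7 of 12 palms lay above the highest Dumpy Yangambi Avros palm, and the lowest Dumpy Avros palms were within the range of the other genotype. The log2 difference was -1.52 ± 0.31 (SE), and its adjusted p was 0.205 in edgeR and 0.00723 in DESeq2. It was -1.51 among zero palms alone and -1.51 among low palms alone.

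LOC105058432 had the widest range as a fold among the 8 genes with a negative difference. It was at 1.38 to 1250 CPM (median 32.4) in Dumpy Avros and at 0.992 to 78.1 CPM (median 7.01) in Dumpy Yangambi Avros. Only 4 of 12 Dumpy Avros palms lay above all Dumpy Yangambi Avros palms, and the other 8 were within the range of that genotype. Its log2 difference was -3.23 ± 0.76 (SE), with an edgeR adjusted p of 0.251. It was -4.25 among zero palms and -2.09 among low palms, -2.18 without Dumpy Avros palm 2 and -1.65 by limma-voom. LOC105054831 was at 120 to 1670 CPM (median 521) and at 117 to 833 CPM (median 190), a log2 difference of -1.46 ± 0.34 (SE), again with 4 Dumpy Avros palms above all others. The adjusted edgeR p of LOC105054831 was 0.251 and its DESeq2 adjusted p was 0.0311.

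LOC105037229 had a small difference, and the groups overlapped. It was at 10.8 to 23.6 CPM (median 13.4) in Dumpy Avros and at 6.81 to 13.8 CPM (median 9.13) in Dumpy Yangambi Avros. All 12 Dumpy Avros palms were above the Dumpy Yangambi Avros median, 6 of 12 were above the highest Dumpy Yangambi Avros palm, and 14 of 20 Dumpy Yangambi Avros palms were below the lowest Dumpy Avros palm. The log2 difference was -0.63 ± 0.15 (SE). LOC105047011 was at 12.2 to 28.7 CPM (median 16.9) and at 8.83 to 17 CPM (median 12.2), a log2 difference of -0.53 ± 0.12. For LOC105047011, 10 of 20 Dumpy Yangambi Avros palms were below the lowest Dumpy Avros palm. Each had an edgeR adjusted p of 0.251.

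The remaining 3 genes were about 2-fold apart in their fitted levels. LOC105041862 was at 7.24 to 51 CPM (median 19.8) in Dumpy Avros and at 2.98 to 25 CPM (median 9.35) in Dumpy Yangambi Avros, a log2 difference of -1.26 ± 0.29 (SE). LOC105057417 was at 7.24 to 32.6 CPM (median 22.7) and at 1.65 to 17.7 CPM (median 10.7), a log2 difference of -1.1 ± 0.25, and 8 of 12 Dumpy Avros palms lay above all Dumpy Yangambi Avros palms. LOC105044891 was at 17.3 to 101 CPM (median 53.9) and at 16.7 to 75.3 CPM (median 25.6), a log2 difference of -1.02 ± 0.24. All 3 genes overlapped between the genotypes and had an edgeR adjusted p of 0.251. Over the 8 genes, Dumpy Avros palms 6 and 7 were among the 6 highest of 12 palms for 8 genes and palm 2 for 7.

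The nearest tested or on/off genes in the EG11 gene order were examined for the named genes found in that table. LOC105033495, LOC105050603, LOC105036251 and LOC105045559 were not matched there and were left out. With 1 gene between them, LOC105058433 lay beside LOC105058432 and was also lower in Dumpy Yangambi Avros, at 89.9 to 566 CPM (median 206) against 150 to 840 CPM (median 381). Its log2 difference was -1.07 ± 0.27 (SE), with an unadjusted p of 0.000436 and an adjusted p of 0.398 by edgeR. LOC105054819, with 1 gene between it and LOC105054831, went the other way, at 0.89 ± 0.4 (SE) with an unadjusted edgeR p of 0.0335. LOC105037347, with 8 genes between it and the on/off gene LOC105037369, and LOC105057779, adjacent to the on/off gene LOC105057778, had log2 differences of 0.69 ± 0.21 and 0.25 ± 0.12 (SE), with unadjusted edgeR p-values of 0.00202 and 0.0495. LOC105057829, an on/off gene with 3 genes between it and LOC105037229, was at 0 to 18.7 CPM in Dumpy Avros and at 0 to 18 CPM in Dumpy Yangambi Avros. The other neighbours that were tested had unadjusted p-values above 0.05. The nearest such gene on either side of each matched gene was examined. Over all tested genes 7.07% had an unadjusted edgeR p below 0.05, and whether neighbours exceeded that share was not tested.

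On/off differences were counted over palms. A gene counted as on/off if it had 0 counts in at least 3 of the 32 palms and at least 5 CPM in at least 3, whatever their genotype, and it was present in a palm at 1 CPM or more. For these counts CPM was by total gene counts. There were 259 such genes, and none separated the genotypes. Of the 259, 257 were present in at least 1 palm of both genotypes, 2 in no Dumpy Avros palm and 0 in no Dumpy Yangambi Avros palm. None was present in all palms of one genotype and absent from all of the other. The share of palms with the gene present was higher in Dumpy Avros for 153 genes, higher in Dumpy Yangambi Avros for 100 and equal for 6. The exact test stratified by embryogenesis group called 0 of 259 genes (0%), with a smallest adjusted p of 0.788, and 10 genes (3.86%) had an unadjusted p below 0.05.

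**Figure D3:**
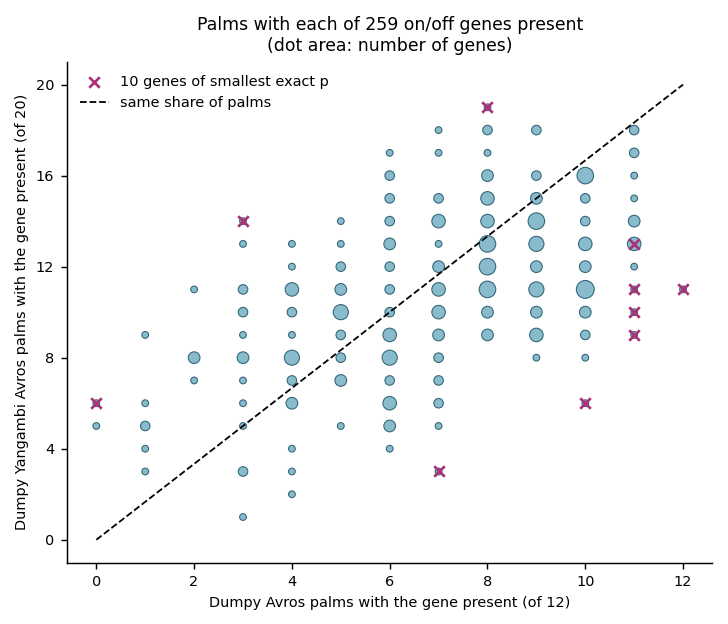
Number of Dumpy Avros palms (of 12) against number of Dumpy Yangambi Avros palms (of 20) in which each of 259 on/off genes was present at 1 CPM or more; dot area is the number of genes, crosses are the 10 genes of smallest exact p and the dashed line is an equal share. Only 2 genes lie at 0 Dumpy Avros palms and none at 0 Dumpy Yangambi Avros palms.

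The lncRNA LOC105044825 had the smallest exact p. It was present in 10 of 12 Dumpy Avros palms and in 6 of 20 Dumpy Yangambi Avros palms, with medians of 18.6 and 0.667 CPM and highest values of 108 and 56.8 CPM. This was the one gene of the 259 with a gap of at least 50 percentage points, 83.3% against 30%. The unadjusted exact p was 0.00921 and the adjusted p 0.788. It was at 0 counts in 2 Dumpy Avros palms, so neither genotype was uniform.

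LOC109505079 was present in 12 of 12 Dumpy Avros palms, at 1.2 to 7.44 CPM, and in 11 of 20 Dumpy Yangambi Avros palms, at 0 to 7.68 CPM (exact p 0.0116, adjusted 0.788). LOC105039899 was present in no Dumpy Avros palm, at most at 0.784 CPM, and in 6 of 20 Dumpy Yangambi Avros palms, up to 14.9 CPM (exact p 0.0152, adjusted 0.788). It still had counts in 10 of 12 Dumpy Avros palms, since 2 were at 0. LOC105039819, the other gene present in no Dumpy Avros palm, was named after its values were seen. It was present in 5 of 20 Dumpy Yangambi Avros palms, with an exact p of 0.0654. LOC105039899 and LOC105039819 met the rule of 5 CPM in 3 palms through Dumpy Yangambi Avros palms alone. Their exact p-values do not allow for that.

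The other 7 on/off genes of smallest p were present in both genotypes. LOC105043164 was present in 7 of 12 and 3 of 20 palms, LOC105057778 in 11 and 9, LOC105046106 in 11 and 10, LOC105036251 in 11 and 11 and LOC105037369 in 11 and 13, in the order Dumpy Avros, Dumpy Yangambi Avros. LOC105044931 was present in 3 of 12 and 14 of 20 palms and LOC105045559 in 8 and 19. Their exact p-values ran from 0.014 to 0.0461 and their adjusted p-values from 0.788 to 0.894. LOC105043164 reached at most 1.28 CPM in Dumpy Yangambi Avros, and LOC105044931 at most 3.49 CPM in Dumpy Avros. Each thus met the rule of 5 CPM in 3 palms through the other genotype alone, which its exact p-value does not allow for.

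**Figure D4:**
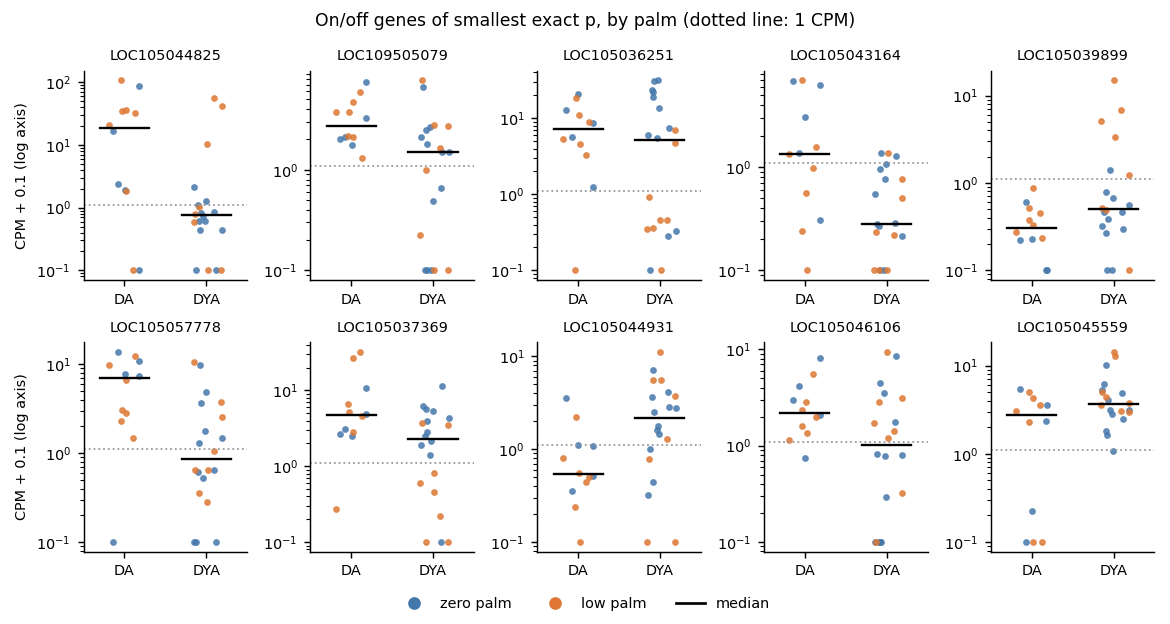
CPM by total gene counts plus 0.1, on a log axis, of the 10 on/off genes of smallest exact p in each Dumpy Avros (DA) and Dumpy Yangambi Avros (DYA) palm; blue dots are zero palms, orange dots low palms, black lines medians and the dotted line 1 CPM. LOC105044825 is above the line in 10 of 12 DA palms and in 6 of 20 DYA palms.

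Thinning every library to the smallest raised the number of on/off genes to 379 and gave 2 calls. LOC105041560 was then present in 3 of 12 Dumpy Avros and 19 of 20 Dumpy Yangambi Avros palms (exact test, adjusted p 0.0349), and LOC105033495 in 1 of 12 and 16 of 20 (adjusted p 0.0349). Without thinning each had only 2 palms at 0 counts and so was not among the 259. At full depth LOC105041560 was at 1 CPM or more in 4 of 12 and 17 of 20 palms, and LOC105033495 in 0 of 12 and 15 of 20. LOC105033495 thus met the rule of 5 CPM in 3 palms through Dumpy Yangambi Avros palms alone, which its p-value does not allow for. LOC105041560 was at 13 CPM in a Dumpy Avros palm and at 0 in a Dumpy Yangambi Avros palm, so its ranges overlapped.

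Pairs of palms of one genotype and pairs of different genotypes were about equally alike in which on/off genes were present. The mean share of the 259 genes in the same state was 57.2% over 66 pairs of Dumpy Avros palms, 54.5% over 190 pairs of Dumpy Yangambi Avros palms and 55% over 240 pairs across genotypes. Within minus between was 0.148 percentage points (permutation of genotype over palms, p 0.712). A palm of Dumpy Avros had 150 ± 10.9 of the 259 genes present (SD, n = 12) and a palm of Dumpy Yangambi Avros 141 ± 16.9 (SD, n = 20). The permutation p for that difference was 0.099.

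Genes with counts in only one genotype were all at low levels. There were 315 with any count in Dumpy Avros palms alone and 722 in Dumpy Yangambi Avros palms alone, the larger group of palms. None reached 5 CPM in any palm or 1 CPM in 3 palms. LOC105059103 had 24 counts in 7 of 12 Dumpy Avros palms and 0 in 20 Dumpy Yangambi Avros palms, where 0 allows up to 3 among 121471930 counts. LOC105046067 had 37 counts in 6 of 20 Dumpy Yangambi Avros palms, and LOC105033367 had 48 counts in 3, of which 40 were in 1 palm. Both were at 0 among 79878566 Dumpy Avros counts. These limits cover counting error only. All 3 genes had counts in L2 palms, in 5, 7 and 8 of 19.

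The first 3 axes of variation between palms did not separate the genotypes beyond the spread between palms. Over the 2000 most variable genes the first 3 components held 26.3%, 19.5% and 10% of the variance, and their permutation p-values adjusted over 5 components were 0.627, 0.627 and 0.898. The fourth component, with 7.65%, differed by genotype, at -11.6 ± 13.7 in Dumpy Avros (SD, n = 12) and 6.94 ± 17.6 in Dumpy Yangambi Avros (SD, n = 20), adjusted p 0.0208 by permutation. It was below 0 in 10 of 12 and above 0 in 14 of 20 palms. Within low palms the means were -12.4 and 13 (exact permutation p 0.00777), and within zero palms -10.4 and 2.87 (exact permutation p 0.184). Of the 16 named genes, 5 were among the 2000, LOC105033495, LOC105039351, LOC105054047 and LOC105053406 with positive and LOC105058432 with negative weights. Each component was turned so that Dumpy Yangambi Avros had the higher mean. The named genes were picked for their genotype difference in these same palms, so the signs of their weights were close to fixed beforehand.

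Of the plastid genes, 0 of 83 passed the test and 0 had an unadjusted edgeR p below 0.05. Over all tested genes 7.07% had such a p. The median log2 difference of the plastid genes was -0.099, with 65 below 0 and 18 above (21.7% above). Over all tested genes the median was 0.029, with 55.1% above 0. The plastid genes were measured in the same palms, so their signs are not separate observations. Plastid counts made up 11.7% ± 2.97 of a Dumpy Avros library and 11.3% ± 3.16 of a Dumpy Yangambi Avros library (SD, n = 12 and n = 20). By complex, the median was -0.022 over 5 photosystem I genes, -0.085 over 15 photosystem II genes, -0.14 over 5 cytochrome b6f genes, -0.16 over 6 ATP synthase genes and -0.096 over 10 genes of the NDH complex. It was -0.085 over 17 ribosomal protein genes, -0.02 over 4 RNA polymerase genes, -0.14 over 12 tRNA genes and -0.064 over 9 other genes. The genes of smallest p in these lists, in the same order, were psaB, psbM, petN, atpE, ndhI, rps18, rpoC2, trnF-GAA and accD, with unadjusted edgeR p-values of 0.121 for petN to 0.576 for accD.

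Of the 15 tested nuclear genes with a symbol, 0 passed the test, 5 were above 0 (33.3%) and 10 below, beside 55.1% above 0 over all tested genes. GLO2, a GLOBOSA-like MADS-box gene of a class known for petal and stamen identity, was at 1.94 to 9.5 CPM (median 5.05) in Dumpy Avros and at 0.638 to 5.93 CPM (median 3.34) in Dumpy Yangambi Avros. The log2 difference of GLO2 was -0.57 ± 0.24 (SE), with an unadjusted p of 0.0251 and an adjusted p of 0.668 by edgeR. PTE, a palmitoyl-ACP thioesterase of fatty acid synthesis, was at 16 to 56.1 CPM (median 40.9) and at 24.6 to 67.3 CPM (median 29), a log2 difference of -0.34 ± 0.15 with an unadjusted edgeR p of 0.0305. The ranges of both genes overlapped. The other 13 had unadjusted p-values above 0.05, with log2 differences of -0.37 for IAA1 (auxin signalling), -0.34 for HCS, -0.32 for GST (glutathione S-transferase), -0.25 for DRM, -0.13 for TCTP, -0.12 for LIP1, -0.067 for ADPRF, -0.052 for GSK, 0.02 for GPAT (glycerol-3-phosphate acyltransferase), 0.076 for CPRF, 0.12 for AHP1 (histidine phosphotransfer protein), 0.28 for CPRZ and 0.44 for CHI2.

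A separate set of palms from agency L2 carries related genotype names. There 12 palms labelled Yangambi_A, Yangambi_B or Yangambi_C were compared with 7 labelled Jen Avros, in InnuPREP kit libraries of shorter reads. All 6 Yangambi_A palms were zero palms and 6 of 7 Jen Avros palms were high palms, so genotype and embryogenesis cannot be told apart in L2. Of the high palms compared only 1 was a Yangambi palm, and of the low palms only 1 was Jen Avros. A fit with embryogenesis as a term hangs on those palms. Leaving out the Yangambi_A palms does not part genotype from embryogenesis. Signs from both fits, and from the fit without an embryogenesis term, are given below as values and are not checks of L1. The share of all L2 genes above or below 0 is not given beside them. Of 20105 tested genes, edgeR called 1459 higher (7.26%) and 1519 lower (7.56%) in Yangambi palms. With embryogenesis as a term it called 0, with 979 at an unadjusted p below 0.05, and without the Yangambi_A palms it called 1.

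Of the 8 genes with a negative difference in L1, 4 were called lower in Yangambi palms. LOC105050513 was at 11.8 to 43.4 CPM (median 33.5) in Jen Avros and at 2.22 to 21.3 CPM (median 5.22) in Yangambi palms, a log2 difference of -1.76 ± 0.41 (SE, edgeR adjusted p 0.0149). LOC105047011 was at 17.7 to 24.5 CPM (median 22.7) and at 11.5 to 18.4 CPM (median 15.1), a log2 difference of -0.51 ± 0.12 (edgeR adjusted p 0.0142). In these genes 5 and 6 of 7 Jen Avros palms lay above every Yangambi palm. LOC105054831 and LOC105058432 were called lower too, at -2.4 ± 0.69 and -2.17 ± 0.72 (SE), with edgeR adjusted p-values of 0.0284 and 0.0482. Without the Yangambi_A palms LOC105047011, LOC105050513, LOC105054831 and LOC105058432 were still below 0, at -0.46, -1.21, -1.66 and -1.56, with edgeR adjusted p-values of 0.275 to 0.393. The LOC105058432 call was also lost with no filter on low counts, at an edgeR adjusted p of 0.055. LOC105058433, the neighbour of LOC105058432, was at -1.08 ± 0.31 (SE, edgeR adjusted p 0.029). It was at -0.72 without the Yangambi_A palms (edgeR adjusted p 0.366) and at 0.37 with embryogenesis as a term (edgeR adjusted p 0.996).

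LOC105037229 had the opposite sign in L2 without an embryogenesis term, at 10.1 to 35.3 CPM (median 19.8) in Jen Avros and 10.1 to 74.3 CPM (median 49.3) in Yangambi palms, a log2 difference of 1.06 ± 0.29 (SE, edgeR adjusted p 0.0246). It was at 0.93 without the Yangambi_A palms (edgeR adjusted p 0.3) and at -0.25, the sign seen in L1, with embryogenesis as a term (edgeR adjusted p 0.996). Of the 8 genes with a positive difference in L1, only LOC105048088 was called higher in Yangambi palms, at 1.47 ± 0.49 (SE, edgeR adjusted p 0.0474), and 5 were above 0. The call of LOC105048088 was lost with no filter on low counts (edgeR adjusted p 0.0558) and without the Yangambi_A palms, at 0.7 (edgeR adjusted p 0.529), and its sign turned with embryogenesis as a term, at -0.94. LOC105033495 was at 3.23 to 30.9 CPM in Jen Avros and at 3.68 to 64.2 CPM in Yangambi palms, and was thus present in all 19 palms. LOC105044825 was present in 1 of 7 Jen Avros and 9 of 12 Yangambi palms, the opposite order to L1. With embryogenesis as a term in L2, 6 of the 8 genes with a negative difference in L1 were below 0 and 0 were called. They were not the same 6 genes as without the term: LOC105058432 and LOC105054831 were above 0, at 0.65 and 0.025, and LOC105041862 and LOC105037229 below it, at -0.22 and -0.25. LOC105050513 was at -0.46 and LOC105047011 at -0.36.

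**Figure D5:**
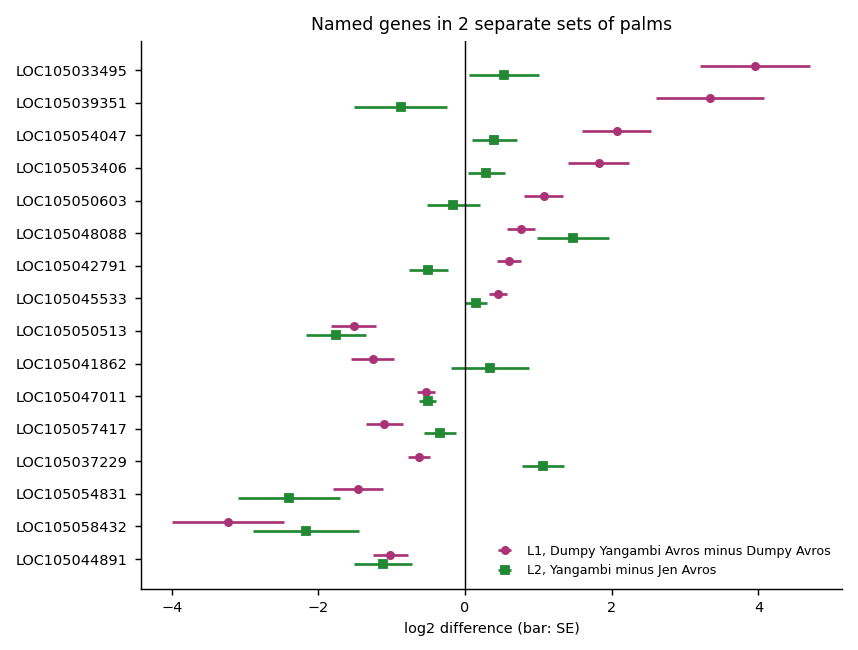
Log2 differences with SE bars of the 16 named genes in L1 (Dumpy Yangambi Avros minus Dumpy Avros, circles) and in L2 (Yangambi minus Jen Avros, squares). Below 0 in L1 are 8 genes, of which 6 are also below 0 in L2, and LOC105037229 lies at -0.63 in L1 and 1.06 in L2. The share of all L2 genes below 0 is not given, and the count is not a check of L1.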

How the data were processed

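Leaf RNA was profiled with a QuantSeq 3' forward kit, per the labels' protocols. What the authors deposited is a raw count of reads for every gene, in whole numbers. The submitters' processing notes name bcl2fastq, STAR (2.7.2b) and HTSeq (0.11.2), without their settings. The strand setting and genome build are not given in the sources used here. Beside 27986 genes, a table has 5 summary lines from HTSeq that entered neither totals nor tests; reads outside genes made up 18.3% ± 2.58 (SD, n = 12) and 17.9% ± 1.74 (SD, n = 20) of a library in Dumpy Avros and Dumpy Yangambi Avros. Counts of overlapping or antisense genes, and of genes with near-identical copies, are uncertain. No 2 of the 58 libraries were identical. TMM factors ran from 0.717 to 1.19 in L1.

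Counts were fitted with edgeR 4.0.16 in R 4.3.3 (TMM, filterByExpr by genotype, robust glmQLFit, glmQLFTest), with Benjamini-Hochberg adjustment over all tested genes and a threshold of 0.05. Each SE is the log2 difference divided by the square root of F. Presence was tested with the exact stratified test of mantelhaen.test. Library measures and component scores were tested two-sided by permutation in scipy 1.17.1, with 100000 resamples, or exactly within embryogenesis groups. Alternatives included DESeq2 1.42.0, limma-voom (limma 3.58.1), RLE scaling, other filters, other terms, thinned counts and leaving out each palm. The fits were tested on simulated data. In that test, 20 of 259 simulated on/off genes, present in 10% of Dumpy Avros and 90% of Dumpy Yangambi Avros palms, were all recovered. These genes too were drawn independently of each other. Smaller gaps in presence were not simulated, while only 1 of the 259 genes in the data had a gap of at least 50 percentage points.

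Named were the 8 genes of smallest p in each direction with an average log2 CPM of at least 1, the 10 on/off genes of smallest exact p, tested nuclear genes with a symbol, the plastid gene of smallest p per list, and neighbours that were on/off genes or had p below 0.05. The members and lists were chosen with earlier results of these data known. Of the 27986 identifiers, 25047 were found in the EG11 table, used for names, gene types and gene order; product names were not available to match, so lists by product name were not used. Sequence was not analysed here. Palm numbers within a genotype only name palms.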

Additional observations from a re-analysis of the deposited data

Results flagged for a closer look

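In the L2 palms labelled Jen Avros, 1 palm stood far above the other 6 in each of 2 genes. LOC105039351 was at 26.4 CPM there, with the next palm at 9.29 CPM, and LOC105048088 was at 70.9 CPM, with the next palm at 25.6 CPM. Of 16 genes examined in these 7 palms, these 2 had a highest palm separated by more than Dixon's 95% critical value. Chance passes that value in about 1 of 20 groups of normally distributed values. The gaps were taken on CPM without logs, and whether these values are normally distributed was not tested. L1 groups hold more than 10 palms and were not examined this way.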

How the results depend on the processing

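The count of 0 calls between the L1 genotypes was the same under each setting tried except DESeq2, which called 17, and leaving out single palms, which gave 0 to 8. The smallest edgeR adjusted p over these settings was 0.0452, without Dumpy Yangambi Avros palm 13. No log2 difference of the 16 named genes changed sign in any L1 setting in which the gene was tested. For LOC105033495 the range was 1.94, among zero palms alone, to 4.4, and the gene was not tested among low palms alone, where it did not pass the count filter. On/off calls were 0 in each setting and with each palm left out, except for 2 with thinned counts. In L2 there were 4520 calls by DESeq2, 1 without the Yangambi_A palms and 0 with an embryogenesis term. The causes were not tested. Depth limits what 3' counts can show for genes near 1 CPM.

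The L1 differences that changed sign belonged to genes outside these 16. Among low palms alone ADPRF was at 0.3, CPRF at -0.16, CPRZ at -0.3, DRM at 0.14, HCS at 0.054, IAA1 at 0.094, LIP1 at 0.036 and LOC105046106 at 0.029. Among zero palms alone AHP1 was at -0.35, GPAT at -0.022, GSK at 0.071, psbM at 0.34, rps18 at 0.24, accD at 0.17 and LOC105036251 at 0.4. AHP1 was at -0.015 by limma-voom and at -0.18 with library quality terms, accD at 0.0055 with those terms, GPAT at -0.019 with thinned counts and LOC105036251 at 0.019 with no embryogenesis term. Without Dumpy Yangambi Avros palms 14 and 15, a setting chosen after seeing the data, GPAT was at -0.013, LIP1 at 0.023, psaB at -0.041 and trnF-GAA at -0.12. With single palms left out ADPRF ran from -0.14 to 0.02, AHP1 from -0.12 to 0.18, GPAT from -0.031 to 0.1, GSK from -0.59 to 0.072 and LIP1 from -0.35 to 0.074. With presence at 1 count the on/off difference of LOC105044931 was -1.67 percentage points.

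With an embryogenesis term in L2, also chosen after seeing the data, the L2 differences were -0.071 for LOC105033495, 0.28 for LOC105039351, 0.71 for LOC105050603, -0.94 for LOC105048088, -0.22 for LOC105041862, -0.25 for LOC105037229, 0.025 for LOC105054831 and 0.65 for LOC105058432. Among zero palms alone, Dumpy Yangambi Avros minus Dumpy Avros was 1.11 points for reads outside genes, 1.7 for the plastid share and 0.442 for the share of the 10 most abundant genes. Among low palms alone it was 214616 for total counts, -2.01 points for multi-mapped reads and -94 for genes detected at thinned depth. No paired analysis was possible because palm numbers only name palms within a genotype.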
